A study of Homo sapiens with 2 samples.

Results

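The genes described here are 51 human genes of homologous recombination and of the Fanconi anaemia pathway, together with the checkpoint, POLQ and PARP genes that work beside them, listed by name, with earlier results of these data known. All 51 were among the 13017 genes listed for each library. RNA was sequenced from breast cancer cells of 1 human line with the label 468, kept in L15 medium with foetal bovine serum. The library from cells transfected with a Smart Silencer against the antisense RNA THAP7-AS1, a mixture of silencing oligonucleotides, was compared with the library from si-NC control cells. The time given for both samples is 48 h. Each group is 1 library from 1 line, so no difference below has a replicate check or a test. Both samples carry the silencer in their treatment label, so the groups rest on the genotype label. The level of THAP7-AS1 is not analysed here, which leaves the knockdown unchecked.

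Homologous recombination repairs broken DNA by copying the intact sister chromatid, and is therefore used in the S and G2 phases of the cell cycle. The break is sensed and marked, its ends are trimmed to single strands, the BRCA proteins prepare those strands to invade the sister chromatid, and the joint molecules that result are taken apart. The Fanconi pathway feeds lesions that tie the strands of DNA together into the same machinery, and loss of BRCA1 or BRCA2 makes breast tumour cells sensitive to inhibitors of PARP1.

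The values are FPKM, fragments scaled to gene length and library size, which allow levels to be compared between genes. They summed to 213442 FPKM in the knockdown library and 213888 FPKM in the control library, at depths estimated at 11100000 and 10900000 fragments. Most epithelial markers were abundant and those of other cell types mostly low. KRT19 was the highest epithelial marker, at 1106 FPKM in the knockdown library and 1057 FPKM in the control library. KRT14 was the lowest, at 5.94 and 3.25 FPKM. The 10 breast epithelial markers summed to 2339 FPKM in the knockdown library and 2287 FPKM in the control library, against sums of 3.22 and 2.53 FPKM for the 4 listed of 8 fibroblast and mesenchymal markers and 14.8 and 14.1 FPKM for the 3 listed of 6 leukocyte markers, mostly CD14 at 10.3 and 9.50 FPKM. PDGFRB was listed at 0 in the control library, and KDR, the 1 listed of 4 endothelial markers, was at 1.07 and 1.15 FPKM. The breast cancer receptor gene ERBB2 was at 6.61 and 4.14 FPKM. The hormone receptor genes ESR1 and PGR were not among the listed genes and so have no values, and a triple-negative state could not be checked in full.

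The repair genes were of low to middling abundance and kept nearly the same levels in both libraries. Their median was 4.30 FPKM in the knockdown library and 3.99 FPKM in the control library, against 5.10 and 5.04 FPKM for all listed genes, and 23 and 22 of the 51 lay above the median gene. Summed, they reached 379.8 and 382 FPKM. USP1, MDC1, PARP1 and PARP2 supplied 34.2% of the sum in the knockdown library, and USP1, PARP1, MDC1 and RBBP8 supplied 35.8% in the control library. In each library 3 members lay under 1 FPKM and 9 at 10 FPKM or more.

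**Figure D1:**
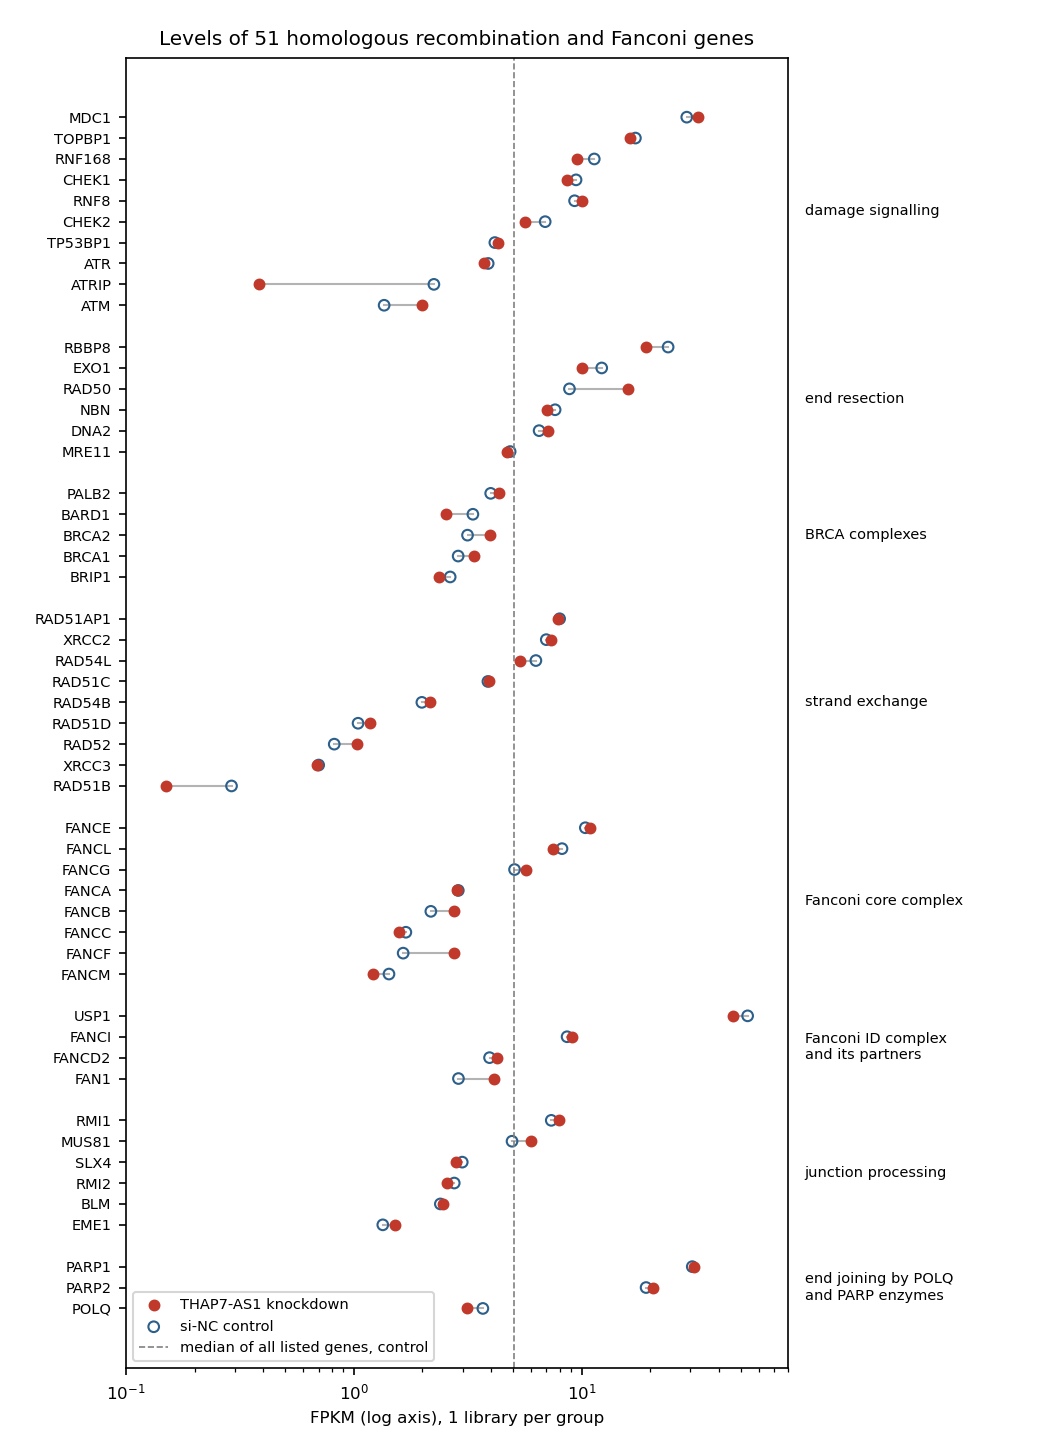
FPKM of the 51 repair genes on a log axis, with filled points for the knockdown library, open points for the control library and grey lines joining them, grouped by repair step. Most pairs of points nearly coincide; ATRIP, RAD50, RAD51B and FANCF are drawn furthest apart, and the dashed line marks the control median of all listed genes, 5.04 FPKM.

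E2F factors drive transcription as cells enter S phase, and the words they bind were looked for in the promoters. Promoter sequences from RefSeq on GRCh38.p14, 250 bases before to 50 after each annotated start, were found for 46 of the 51 genes in 62 windows. RMI2, NBN, RAD54B, FANCI and DNA2 had no entry. TTCCCGC or TTGGCGC, read on both strands, stood in a window of 24 of the 46, or 52.2%, against 1858 of 10344 listed genes with a window, or 18.0%. TTCCCGC stood in 19 members and TTGGCGC in 6, and BLM held both. The median GC content was 63.8% in the members' windows and 64.7% in those of all listed genes. The windows below show the helicase gene BLM, with 3 such words, BRCA1 and FANCD2, with 1 each in the window shown, and ATRIP, the member that differed most between the libraries, which holds none in this window; capitals mark the words, and GCGGGAA is TTCCCGC on the other strand.
BLM, chr15:90717096-90717395, + strand: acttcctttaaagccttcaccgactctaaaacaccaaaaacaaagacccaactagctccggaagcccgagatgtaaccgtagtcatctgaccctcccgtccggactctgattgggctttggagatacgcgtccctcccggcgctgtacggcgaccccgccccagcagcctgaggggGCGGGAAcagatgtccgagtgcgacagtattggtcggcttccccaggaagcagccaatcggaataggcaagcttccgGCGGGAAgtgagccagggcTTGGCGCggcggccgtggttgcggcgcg
BRCA1, chr17:43125315-43125614, - strand: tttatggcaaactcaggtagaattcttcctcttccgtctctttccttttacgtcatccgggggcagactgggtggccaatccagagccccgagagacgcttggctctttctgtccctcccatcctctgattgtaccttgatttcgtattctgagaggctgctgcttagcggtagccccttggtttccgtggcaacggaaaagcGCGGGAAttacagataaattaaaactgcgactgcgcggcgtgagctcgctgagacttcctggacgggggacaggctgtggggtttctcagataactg
FANCD2, chr3:10026187-10026486, + strand: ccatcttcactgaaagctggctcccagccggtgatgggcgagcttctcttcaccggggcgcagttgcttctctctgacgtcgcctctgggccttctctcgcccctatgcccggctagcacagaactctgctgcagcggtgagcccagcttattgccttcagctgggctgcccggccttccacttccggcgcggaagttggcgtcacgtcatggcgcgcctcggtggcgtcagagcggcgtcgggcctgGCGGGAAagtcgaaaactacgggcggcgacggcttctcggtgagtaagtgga
ATRIP, chr3:48446487-48446786, + strand: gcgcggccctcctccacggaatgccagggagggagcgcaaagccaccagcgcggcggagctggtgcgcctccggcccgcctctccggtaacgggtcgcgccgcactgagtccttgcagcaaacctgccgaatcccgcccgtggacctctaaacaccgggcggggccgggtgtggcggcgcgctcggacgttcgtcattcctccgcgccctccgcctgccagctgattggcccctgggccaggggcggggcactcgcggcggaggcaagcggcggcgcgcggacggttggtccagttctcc
Across all 35116 windows of the table, of any gene type, TTCCCGC stood in 6.55% and TTGGCGC in 3.04%. The CHR words TTTGAA and TTCGAA, found at genes of G2 and mitosis, stood in 6 and 1 of the 46 members, near the 13.7% and 2.30% of all listed genes. CCAAT, the word of the factor NF-Y, stood in 21 members, 45.7%, against 43.4% of listed genes; its first letters can overlap the end of GCGCCAA, which is TTGGCGC on the other strand. Members with either E2F word, 22 of them at a mean of 1 FPKM or more, had a median log2 ratio of 0.03 between the libraries and the 21 without had 0.02. A word in these windows is a match of letters and not a site shown to be bound.

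Ratios were taken as log2((knockdown FPKM + 1)/(control FPKM + 1)), and the folds below are on that scale unless a plain value is named. A gene counted as measured where its values in the libraries averaged 1 FPKM or more, which held for 48 of the 51 members; RAD51B, RAD52 and XRCC3 fell short. The median log2 ratio of the 48 was 0.03, beside 0.02 over 10925 measured genes, with 26 above 0 and 22 below. Above 0 were 54.2% of the 48 and 53.1% of all measured genes. At least 1.5-fold apart were RAD50, higher in the knockdown library, and ATRIP, lower in it, each 1 of 48 or 2.08%. Over all measured genes 2.98% were at least 1.5-fold higher and 2.46% at least 1.5-fold lower, and 5.45% were past it in either direction, so the members' count of 2 in 48 is near the background. ATRIP was also past 2-fold, as were 0.668% of all genes on the lower side, and 0 members were at least 2-fold higher, against 0.604% of all genes. The other 46 members differed by less than 1.5-fold. Within 1.2-fold, a limit set after the values had been seen, lay 41 members, 85.4%, against 74.1% of all measured genes.

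**Figure D2:**
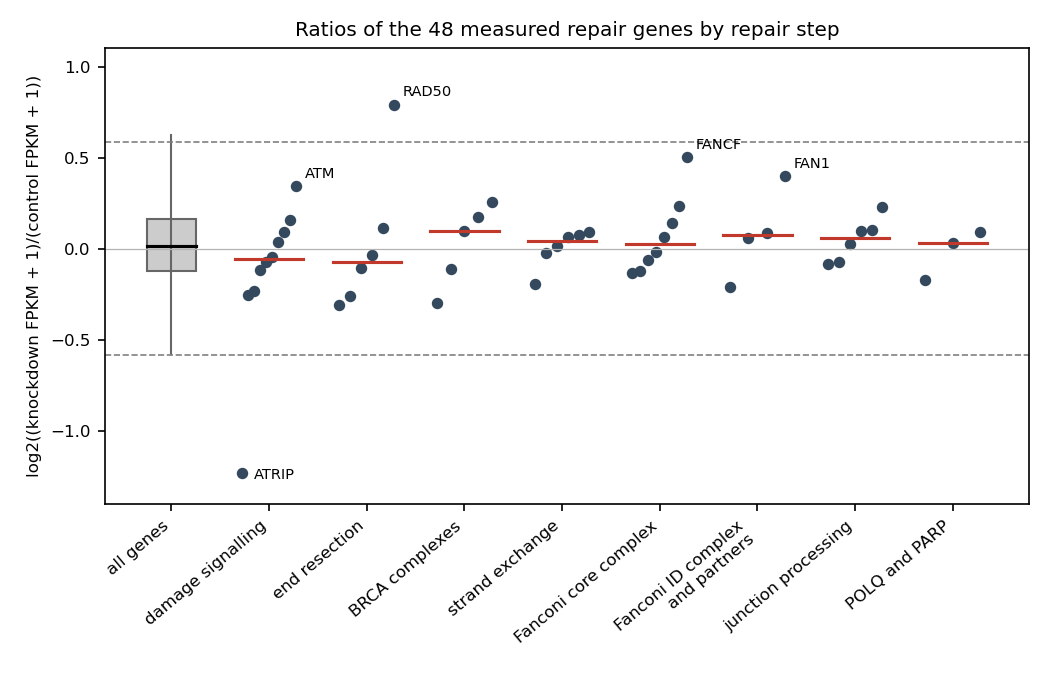
Log2 ratios of the 48 measured repair genes by repair step, each point a gene, with red lines at the median of each step and dashed lines at 1.5-fold. The grey box and line give the central 50% and 95% of all 10925 measured genes, from -0.58 to 0.62, and of the members RAD50 and ATRIP lie beyond that range.

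**Figure D3:**
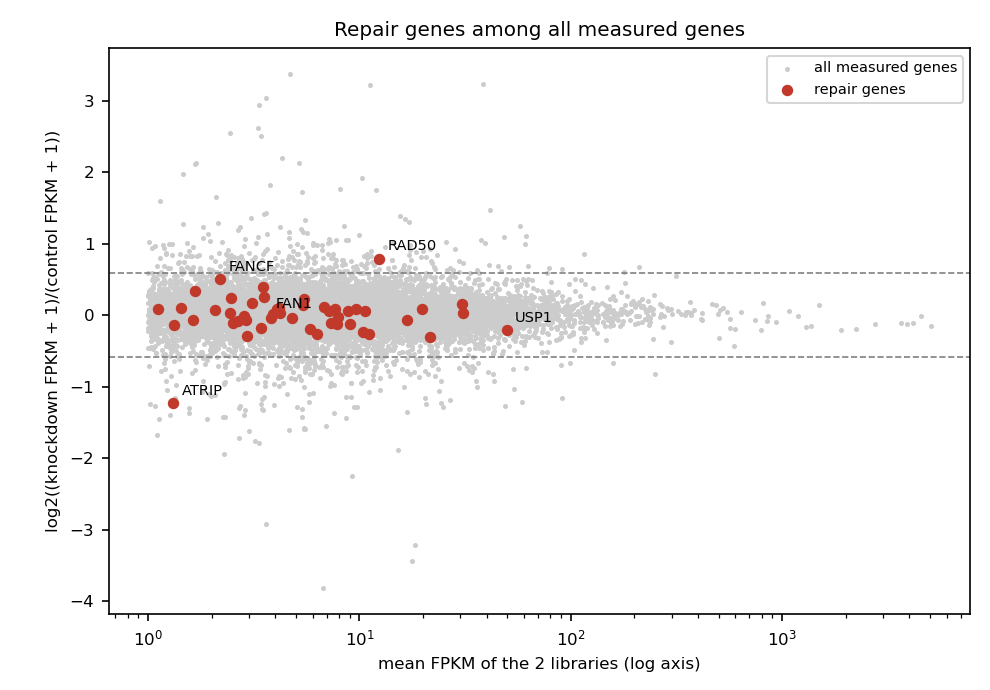
Log2 ratio against mean FPKM on a log axis for all measured genes in grey and the repair genes in red, with dashed lines at 1.5-fold. The red points follow the middle of the grey cloud apart from ATRIP at a mean of 1.31 FPKM and RAD50 at 12.4 FPKM.

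The damage signalling genes sense and mark the break. The 10 genes of this step had a median log2 ratio of -0.06, with 4 above 0. MDC1, the scaffold that gathers repair factors on phosphorylated histone H2AX, was the most abundant at 32.3 FPKM in the knockdown library and 28.9 FPKM in the control library. The ubiquitin ligases that act after it, RNF8 and RNF168, were at 9.99 against 9.30 FPKM and at 9.53 against 11.4 FPKM. RNF8 was higher and RNF168 lower in the knockdown library, each by less than 1.5-fold. TP53BP1, which shields ends from resection and competes with BRCA1, was at 4.30 FPKM in the knockdown library and 4.16 FPKM in the control library.

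ATM and ATR, the kinases that start the response, lay below the median gene in both libraries. ATM, the kinase activated by breaks, was the least abundant gene of the step in the control library, at 1.99 FPKM in the knockdown library and 1.36 FPKM in the control library, for a log2 ratio of 0.34. ATR, the kinase activated by exposed single strands, was at 3.74 and 3.89 FPKM. Its activator TOPBP1 was far more abundant, at 16.3 FPKM in the knockdown library and 17.2 FPKM in the control library. The effector kinase CHEK1, which ATR activates, was at 8.62 and 9.44 FPKM, and CHEK2, which ATM activates, at 5.63 and 6.91 FPKM, log2 ratios of -0.12 and -0.26. Both checkpoint kinases were thus a little lower in the knockdown library, within 1.5-fold.

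ATRIP, the partner that brings ATR to single strands, stood apart from the rest. It was at 0.382 FPKM in the knockdown library and 2.25 FPKM in the control library, for a log2 ratio of -1.23. The plain ratio was 0.170, since the added 1 weighs heavily at this level, and ATR was 9.78 times as abundant as ATRIP in the knockdown library and 1.73 times in the control library. The reads behind these values were estimated at 19.5 fragments in the knockdown library and 113 fragments in the control library, for a counting error of 0.35 on the plain log2 ratio. All 1515 exonic bases of TREX1, an exonuclease gene that degrades DNA in the cytosol, lie in exons of ATRIP on the same strand in GENCODE release 29. TREX1 was at 0.554 FPKM in the knockdown library and 3.25 FPKM in the control library, for a log2 ratio of -1.45. Both listed values were lower in the knockdown library, and their summed FPKM was 0.937 against 5.49, a log2 ratio of -1.75. The added 1 weighs less on higher values, so -1.75 is not by itself a larger difference than -1.23. Since TREX1 lies wholly in exons of ATRIP, both values may rest on the same reads. With a pseudocount of 5 FPKM in place of 1 the log2 ratio of ATRIP was -0.43, short of 1.5-fold. How reads of the shared exons were divided between the genes was not tested.

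End resection, which trims the broken ends, held the other gene past 1.5-fold. RAD50, the coiled-coil subunit of the nuclease complex with MRE11 and NBN, was at 16.0 FPKM in the knockdown library and 8.83 FPKM in the control library, for a log2 ratio of 0.79. ENSG00000283782, named AC116366.3 in GENCODE release 29, shares 7784 of the 9771 exonic bases of RAD50 on the same strand. It was at 0.0749 FPKM in the knockdown library and 7.17 FPKM in the control library. Added together, the pair reached 16.1 FPKM in the knockdown library and 16.0 FPKM in the control library, for a log2 ratio of 0.01. The higher value of RAD50 was thus accompanied by a lower value of the gene listed over the same exons, and their summed FPKM was level. The division of reads between this pair was not tested.

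The partners of RAD50 in the complex were level. MRE11, the nuclease, was the least abundant gene of the step, at 4.71 FPKM in the knockdown library and 4.85 FPKM in the control library. NBN, which links the complex to ATM, was at 7.02 and 7.64 FPKM. RBBP8, which encodes CtIP, the cofactor that starts resection, was the most abundant, at 19.2 FPKM in the knockdown library and 23.9 FPKM in the control library, for a log2 ratio of -0.31. Of the nucleases that extend resection, EXO1 was at 10.1 and 12.2 FPKM and DNA2 at 7.12 and 6.50 FPKM. EXO1 and RBBP8 were lower in the knockdown library and DNA2 higher, all within 1.5-fold. The median log2 ratio over the 6 genes of the step was -0.07.

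**Figure D4:**
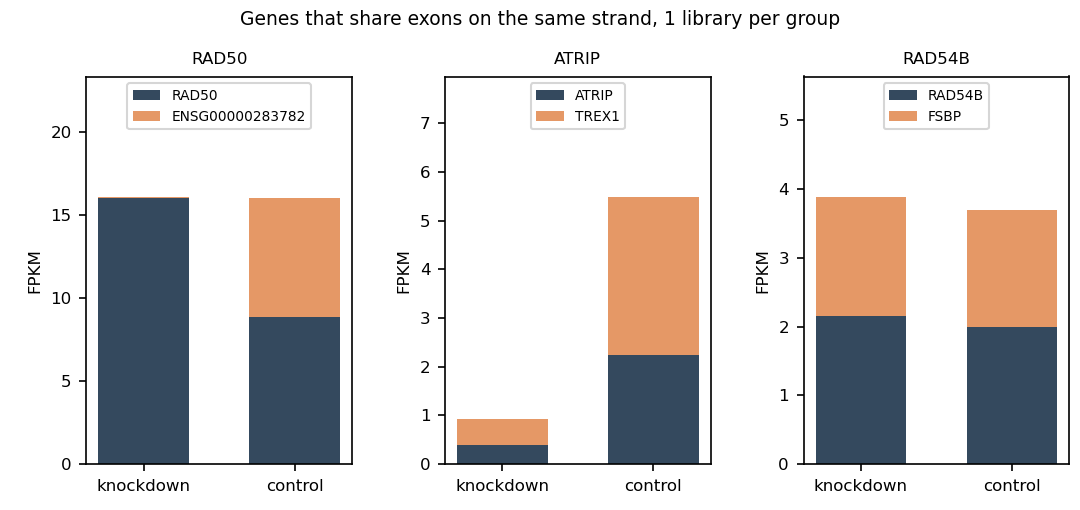
Stacked FPKM in the knockdown and control libraries of RAD50 with ENSG00000283782, ATRIP with TREX1 and RAD54B with FSBP, each pair sharing exons on the same strand. The RAD50 stacks are of equal height, 16.1 and 16.0 FPKM, with different division, whereas the ATRIP stack reaches 0.937 FPKM in the knockdown library and 5.49 FPKM in the control library.

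The BRCA genes, which join resection to strand exchange, were below the median gene in both libraries. BRCA1 was at 3.36 FPKM in the knockdown library and 2.87 FPKM in the control library, for a log2 ratio of 0.17. BARD1, its partner in an E3 ubiquitin ligase, was at 2.53 and 3.33 FPKM, for a log2 ratio of -0.30. The partners thus differed in opposite directions, each by less than 1.5-fold. Their plain ratios were 1.17 and 0.759, with counting errors of 0.13 and 0.15 on the log2 of those plain ratios. Log2 ratios of all genes at a mean of 2 to 5 FPKM had a spread of 0.23, taken from their median absolute deviation. BRCA1 was 1.33 times as abundant as BARD1 in the knockdown library and 0.862 times in the control library. BRCA2, which acts on the resected single strand, was at 3.95 FPKM in the knockdown library and 3.15 FPKM in the control library, for a log2 ratio of 0.25. PALB2, the bridge between BRCA1 and BRCA2, was at 4.33 and 3.99 FPKM. BRIP1, a helicase that binds BRCA1, was at 2.37 and 2.65 FPKM, the lowest of the 5 in both libraries. The step had a median log2 ratio of 0.10, with 3 genes above 0 and 2 below.

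Among genes of strand exchange, XRCC2, XRCC3, RAD51B, RAD51C and RAD51D, whose products form complexes that assist strand exchange, lay at very different levels. XRCC2 was at 7.35 FPKM in the knockdown library and 6.99 FPKM in the control library. RAD51C, which serves in both of these complexes, was at 3.93 and 3.88 FPKM, and RAD51D at 1.18 and 1.04 FPKM. XRCC3, at 0.689 and 0.701 FPKM, and RAD51B, at 0.150 and 0.290 FPKM, were the lowest. The order of the 5 genes was the same in both libraries. RAD51B rested on an estimated 4.34 fragments in the knockdown library and 8.25 fragments in the control library, so a difference was not detectable at this depth. RAD52, an annealing protein, was at 1.03 and 0.820 FPKM.

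RAD51AP1, which stimulates strand invasion, led the step with 7.84 FPKM in the knockdown library and 8.0 FPKM in the control library. The motor protein gene RAD54L was at 5.37 and 6.29 FPKM and its relative RAD54B at 2.15 and 1.99 FPKM. RAD54B shares 3139 bases of exon on the same strand with FSBP, which was at 1.74 and 1.71 FPKM, so their division was alike in both libraries. The 6 measured genes of the step lay between -0.20 and 0.09 in log2 ratio, with a median of 0.04.

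The Fanconi core complex is the ubiquitin ligase that marks FANCD2 and FANCI at a crosslink. FANCE, which binds FANCD2, was the most abundant of its 8 genes, at 10.9 FPKM in the knockdown library and 10.4 FPKM in the control library. The catalytic subunit gene FANCL was at 7.46 and 8.19 FPKM and FANCG at 5.70 and 5.07 FPKM. Lower were FANCA, the gene most often mutated in Fanconi anaemia, at 2.83 and 2.87 FPKM, and FANCC at 1.57 and 1.69 FPKM. FANCM, the helicase-like anchor on DNA, was the lowest at 1.21 FPKM in the knockdown library and 1.43 FPKM in the control library. The levels of the core genes were thus spread widely, and similarly in both libraries. FANCF, an adaptor of the complex, had the largest ratio of the step, at 2.75 FPKM in the knockdown library and 1.65 FPKM in the control library, for a log2 ratio of 0.50 and a fold of 1.42. It passed 1.5-fold with a pseudocount of 0.1 and on the TPM scale, whose larger values make the added 1 weigh less. FANCB, on the X chromosome, was at 2.74 and 2.18 FPKM. The median log2 ratio of the 8 genes was 0.02, with 4 above 0 and 4 below.

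The targets of the core complex were level. FANCI was at 9.03 FPKM in the knockdown library and 8.63 FPKM in the control library, and FANCD2 at 4.24 and 3.94 FPKM. FANCI was therefore 2.13 times as abundant as its partner FANCD2 in the knockdown library and 2.19 times in the control library. USP1, the enzyme that removes ubiquitin from the pair, was the most abundant of all 51 genes, at 46.0 FPKM in the knockdown library and 53.5 FPKM in the control library, for a log2 ratio of -0.21. FAN1, a nuclease drawn to ubiquitinated FANCD2, was at 4.11 and 2.88 FPKM, for a log2 ratio of 0.40. It was higher in the knockdown library by less than 1.5-fold, and shares 1507 bases of exon with MTMR10 on the opposite strand, which was at 1.61 and 1.59 FPKM.

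Joint molecules are taken apart by dissolution or by cutting. The dissolution complex is made of the helicase BLM, a topoisomerase and the RMI proteins. BLM was at 2.46 FPKM in the knockdown library and 2.40 FPKM in the control library, RMI1 at 7.92 and 7.35 FPKM, and RMI2 at 2.55 and 2.76 FPKM. RMI1 was 3.22 times as abundant as BLM in the knockdown library and 3.07 times in the control library. The resolving nuclease MUS81 was at 5.97 and 4.95 FPKM, its partner EME1 at 1.51 and 1.34 FPKM, and SLX4, the platform on which nucleases meet, at 2.80 and 2.99 FPKM. EME1 was the lowest of the step and MUS81 had the largest ratio, 0.23. Both share exons on the opposite strand with more abundant genes. MUS81 shares 759 bases with CFL1, which was at 54.4 FPKM in the knockdown library and 49.4 FPKM in the control library. EME1 shares 541 bases with LRRC59, which was at 45.8 and 42.1 FPKM. The median log2 ratio of the 6 genes was 0.06.

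The PARP enzymes, which mark breaks with poly(ADP-ribose), were abundant and level. PARP1 was at 31.2 FPKM in the knockdown library and 30.6 FPKM in the control library, and PARP2 at 20.5 and 19.2 FPKM. POLQ, the polymerase of end joining at short matching sequences, was at 3.15 FPKM in the knockdown library and 3.68 FPKM in the control library, for a log2 ratio of -0.17. Among listed genes of the knockdown library PARP1 lay above 90.4% and POLQ above 36.6%, and among those of the control library above 90.2% and 41.1%.

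Other repair genes that are not among the 51 were described from lists by role. Over all measured genes 53.1% were above 0, 2.98% at least 1.5-fold higher and 2.46% at least 1.5-fold lower. The 25 measured other homologous recombination genes had a median log2 ratio of -0.08, with 12 above 0. Of these, 1 was at least 1.5-fold higher and 2 were at least 1.5-fold lower. GEN1, a nuclease that resolves crossed junctions, was at 1.83 FPKM in the knockdown library and 5.25 FPKM in the control library, for a log2 ratio of -1.15. RTEL1, a helicase that unwinds joint molecules, was at 1.56 and 3.75 FPKM, for a log2 ratio of -0.89. Both stood lower in the knockdown library, and RTEL1 shares 4522 bases of exon on the same strand with RTEL1-TNFRSF6B, which was at 1.36 and 0.190 FPKM. FIGNL1, an AAA ATPase gene of homologous recombination named after its value had been seen, was the gene at least 1.5-fold higher, at 7.99 and 4.37 FPKM.

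The 13 measured other Fanconi genes had a median of -0.04, with 4 above 0 and 0 past 1.5-fold. FAAP100, a core subunit gene, was at 6.25 FPKM in the knockdown library and 4.17 FPKM in the control library, and the translesion polymerase gene REV1 at 4.91 and 5.79 FPKM. Checkpoint and BRCA1-A genes, 22 measured, had a median of 0.02, with 13 above 0, 1 at least 1.5-fold higher and 0 at least 1.5-fold lower. TIPIN, of the fork protection complex, was at 8.28 FPKM in the knockdown library and 5.0 FPKM in the control library, for a log2 ratio of 0.63, and the kinase gene WEE1, which restrains entry into mitosis, at 2.99 and 4.84 FPKM, for a log2 ratio of -0.55. TIPIN was higher and WEE1 lower in the knockdown library.

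End joining without a template was level too. The 10 genes of non-homologous end joining had a median log2 ratio of 0.02, with 5 above 0 and 0 past 1.5-fold. POLL was at 2.15 FPKM in the knockdown library and 1.43 FPKM in the control library. POLM was at 3.63 and 3.03 FPKM, and both encode gap-filling polymerases. POLL shares 243 bases of exon on the opposite strand with DPCD, which was at 7.56 and 4.62 FPKM, for a log2 ratio of 0.61. The 5 other genes of alternative end joining had a median of 0.01, with 3 above 0 and 0 past 1.5-fold. LIG1, a DNA ligase gene, was at 20.6 and 22.3 FPKM and the flap nuclease gene FEN1 at 56.2 and 60.5 FPKM. The Ku gene XRCC6, named after its values had been seen, reached 151 FPKM in the knockdown library and 166 FPKM in the control library, above each of the 51 genes.

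**Figure D5:**
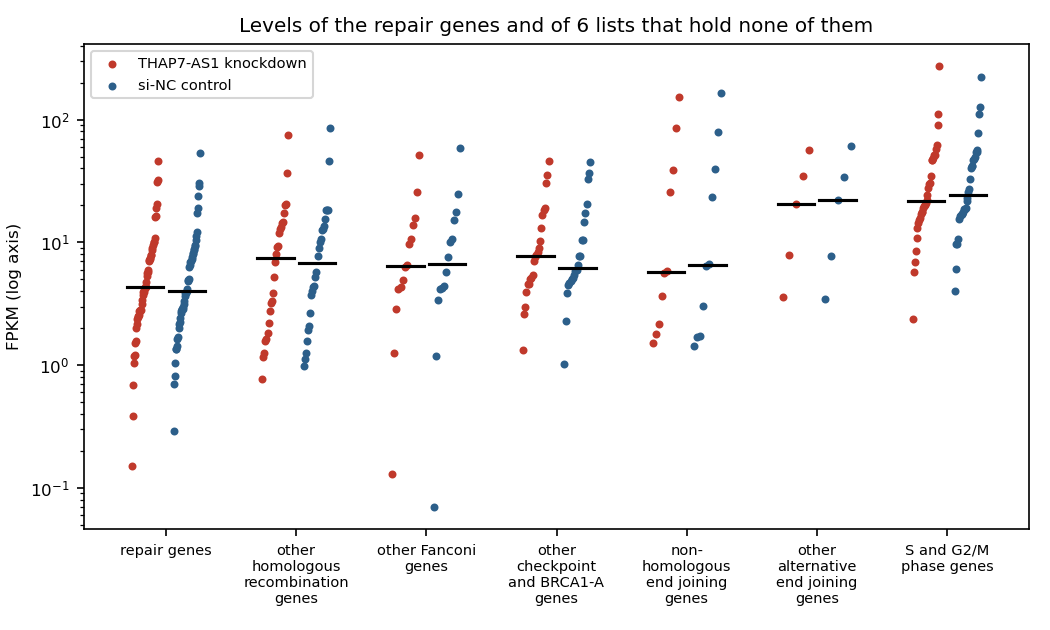
FPKM on a log axis of the repair genes and of 6 lists that hold none of them, each point a gene, red for the knockdown library and blue for the control library, with black lines at the medians. The medians of the repair genes, 4.30 and 3.99 FPKM, lie under those of the other lists, and the S and G2/M phase genes, at 21.6 and 24.3 FPKM, and the alternative end joining genes, at 20.6 and 22.3 FPKM, lie highest.

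Because these genes are used in S and G2, genes of those phases were set beside them. The 32 S and G2/M phase genes had a median log2 ratio of -0.12, while the repair genes had 0.03. Of the 32, 10 or 31.25% were above 0, against 53.1% of all measured genes. At least 1.5-fold higher were 0 and at least 1.5-fold lower 2, against 2.98% and 2.46% of all measured genes. UHRF1, which maintains DNA methylation at replication, was at 14.4 FPKM in the knockdown library and 23.0 FPKM in the control library. RRM2, the small subunit of ribonucleotide reductase, was at 24.4 and 47.0 FPKM. ENSG00000284681, which shares 1077 bases of exon with RRM2 on the same strand, stood higher in the knockdown library, at 37.6 and 19.3 FPKM, and the pair summed to 62.0 FPKM in the knockdown library and 66.3 FPKM in the control library. In bulk RNA, fewer cells in a phase and less RNA per cell cannot be told apart, and the part of the cell cycle in the ratios of the repair genes was not tested.

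Both members past 1.5-fold share exons with another listed gene. Among all measured genes, 2.98% were at least 1.5-fold higher and 2.46% at least 1.5-fold lower. Without genes that share exons on the same strand these shares were 2.70% and 2.16%. Whether shared exons bear on the ratios of RAD50 and ATRIP was not tested. Of the 51, 4 share exons on the same strand with another listed gene, RAD50, ATRIP, RAD54B and CHEK1, the last over 80 bases with STT3A, against 7.43% of all measured genes. Another 12 share exons on the opposite strand, and the share of all measured genes that do so was not counted. The strandedness of the libraries is not given in the sources used here, so reads of such partners cannot be told apart if it was not kept. XRCC3 has the largest such overlap, with 76.7% of its exonic bases shared with KLC1, which was at 3.74 FPKM in the knockdown library and 3.57 FPKM in the control library. CHEK2 shares 301 bases with HSCB, which was at 5.97 and 4.16 FPKM, higher in the knockdown library where CHEK2 was lower.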

How the data were processed

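The authors deposited 1 table of FPKM per library, the unit being per the file headers. Per the submitters' processing notes the tools were cutadapt, StringTie and HISAT2 2.0.5, on hg19; the sources used here do not give the annotation or the strandedness. Identifiers without version were matched to symbols, found for 12746 of 13017. GENCODE release 29, on another build, gave lengths and shared exons by identifier only. Ratios used a pseudocount of 1 FPKM over genes that averaged 1 FPKM or more; the pseudocount understates the change of low genes. With 1 library per group nothing was tested, and folds of 1.5 and 2 took the place of a test. Every repair gene could be named, with both values for those 1.5-fold apart, for the highest and lowest of each step and for 11 set genes (BRCA1, BRCA2, PALB2, BARD1, FANCD2, FANCI, ATM, ATR, CHEK1, PARP1 and POLQ), and of each other list the 2 largest ratios in either direction; partners by shared exons were named after their values were seen. The members, lists and steps were chosen with earlier results of these data known.

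For genes of 1 transcript, the lowest FPKM values times length gathered near 89.7 in the knockdown library, over 14 genes, and 91.4 in the control library, over 10 genes. Taken as 1 fragment these correspond to about 11100000 and 10900000 fragments. The window, 80 to 95, was chosen with the values in view. Fragments per gene use the longest principal transcript, and counting errors cover counting only. Alternatives changed the pseudocount, filter, scaling and treatment of shared exons. Python 3.11.15, numpy 2.4.6, pandas 2.3.3 and matplotlib 3.10.9 were used, and the ratios and folds were tested on simulated data. The simulated noise was smaller than the spread of 0.21 in the log2 ratios of all measured genes. The simulation thus checks the calculation and not how often unchanged genes pass a fold in these libraries.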

Additional observations from a re-analysis of the deposited data

How the results depend on the processing

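No paired analysis was possible because each group is 1 library. The count of repair genes at least 1.5-fold higher, 1, became 2 with a pseudocount of 0.1 and on the TPM scale, where FANCF joined RAD50 (the FPKM totals are nearly equal, and on the TPM scale the added 1 also acts as a smaller pseudocount), and 0 without genes that share exons or with RAD50 and ATRIP each added to the gene sharing their exons, a setting chosen after seeing the data. The counts at least 1.5-fold and 2-fold lower, 1 each, became 0 with a pseudocount of 5, with only genes averaging 5 FPKM or more and without genes that share exons; the stricter filter and the last setting leave ATRIP out by construction. The median log2 ratio of the repair genes, 0.03, lay between 0.0044 (the mean in its place) and 0.04 over the 11 alternatives. The median of FANCD2, FANCI, USP1 and FAN1, 0.07, became -0.077 at a mean of at least 5 FPKM, where 2 genes were left, and that of strand exchange, 0.04, became -0.03, with 3 left. Of 361 values of single members under other settings, 355 moved by less than the spread of all genes' ratios at a like level. The other 6, of ATRIP, FANCF and RAD50, moved by more. A change of filter leaves the ratio of a single gene as it is, and centring shifts all ratios by the same small amount. Values under those settings are among the 361 and could not have moved by more than the spread. RAD50 fell short of any fold at 0.01 once added to ENSG00000283782. ATRIP with TREX1 stood at -1.75, where the added 1 weighs less than on ATRIP alone. Only RAD50 and ATRIP were past 1.5-fold to begin with, and no setting turned their ratios round. Changes of sign in smaller ratios were not counted: BLM, at 0.03, stood at -0.0053 with quantile normalization. Depth limits RAD51B, XRCC3 and RAD52 most.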

Other observations

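Other repair genes share exons with listed genes, and how reads were divided between them was not tested. CENPS, a histone-fold subunit of the Fanconi core anchor, was at 13.8 FPKM in the knockdown library and 15.2 FPKM in the control library, while the readthrough gene CENPS-CORT, which shares 1126 bases of exon with it, was at 4.86 and 1.75 FPKM. Their sums were 18.6 and 17.0 FPKM, for a log2 ratio of 0.13. RTEL1 and RTEL1-TNFRSF6B together were at 2.92 FPKM in the knockdown library and 3.94 FPKM in the control library, for a log2 ratio of -0.33, against -0.89 for RTEL1 alone. GEN1 shares 107 bases of exon with SMC6 on the opposite strand, which was at 21.0 and 18.8 FPKM, and has no listed partner on its own strand. These genes were chosen after their values had been seen.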
